A study of Sus scrofa with 12 samples.

Results

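The KCNS3 and MSGN1 loop domain is a 400-kb stretch of pig chromosome 3 (Sscrofa11.1) that holds 2 genes of very different kinds. KCNS3 (gene ID 733666, 119951110 to 119989541) encodes a voltage-gated potassium channel subunit, and MSGN1 (gene ID 100520670, 120033980 to 120034624) encodes mesogenin 1, a basic helix-loop-helix transcription factor. Its members were all H3K27ac loops with at least 1 anchor inside the stretch, and these were 36 of the 122406 different loops listed over 4 libraries. The domain was chosen by the interaction scores of KCNS3 and MSGN1, which differed between the breeds in these same libraries. The loop values below are therefore descriptions and carry no test, and the RNA signal, from separate libraries, is the measure that was tested.

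The study mapped chromatin loops by H3K27ac BL-HiChIP and RNA-chromatin contacts by GRID-seq in the longissimus dorsi, a back muscle, of Large White (LW) and Meishan (MS) piglets aged 2 weeks. LW is a lean commercial breed and MS is a local Chinese breed, and no treatment or genetic change was made in either group. Each assay had 2 libraries per breed, named here as replicates 1 and 2, and pairs of values are given in that order. The study's methods describe male piglets but leave it unclear whether the replicates of a breed were different animals, so the spread between replicates may be technical. Breed cannot be told apart from whatever else differed between the few animals used.

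In BL-HiChIP, stretches of DNA in contact inside the nucleus are joined by a bridge linker, and an antibody then pulls down fragments carrying H3K27ac, an acetylated histone typical of enhancers and promoters in use. A loop in the lists is a pair of 5-kb bins, its anchors, joined more often than their distance would give, and it can be called where 1 bin carries an H3K27ac peak. Such loops can place an enhancer beside the promoter of a gene that lies far from it. KCNS3 belongs to the silent subunits, which form no channel of their own but join other potassium channel subunits and change how these channels open and close. MSGN1 acts in the presomitic mesoderm of the embryo, the tissue from which the somites and later the trunk muscles arise.

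The domain held 20 and 22 loops in LW replicates 1 and 2 and 1 and 3 loops in MS replicates 1 and 2. The mean was 21 in LW (SD 1.41, n = 2) and 2 in MS (SD 1.41, n = 2), a difference of 19 loops. Both LW libraries were above both MS libraries, and the gap of 17 loops between the lower LW and the higher MS library was wider than the difference between replicates of either breed. The summed −log10 FDR of the domain loops was 125.9 and 165.3 for LW against 3.27 and 11.4 for MS, also without overlap. When the genome was cut into windows of the same length, 39.7% of the 4390 windows with a loop had a higher sum in both LW libraries and 5.92% in both MS libraries, so the absence of overlap alone does not set the domain apart. The fitted difference of the sum, after quantile normalization, was 3.59 on the log2(sum + 1) scale (SE 0.69) and ranked 7 of 4390 windows in the direction of LW.

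**Figure D1:**
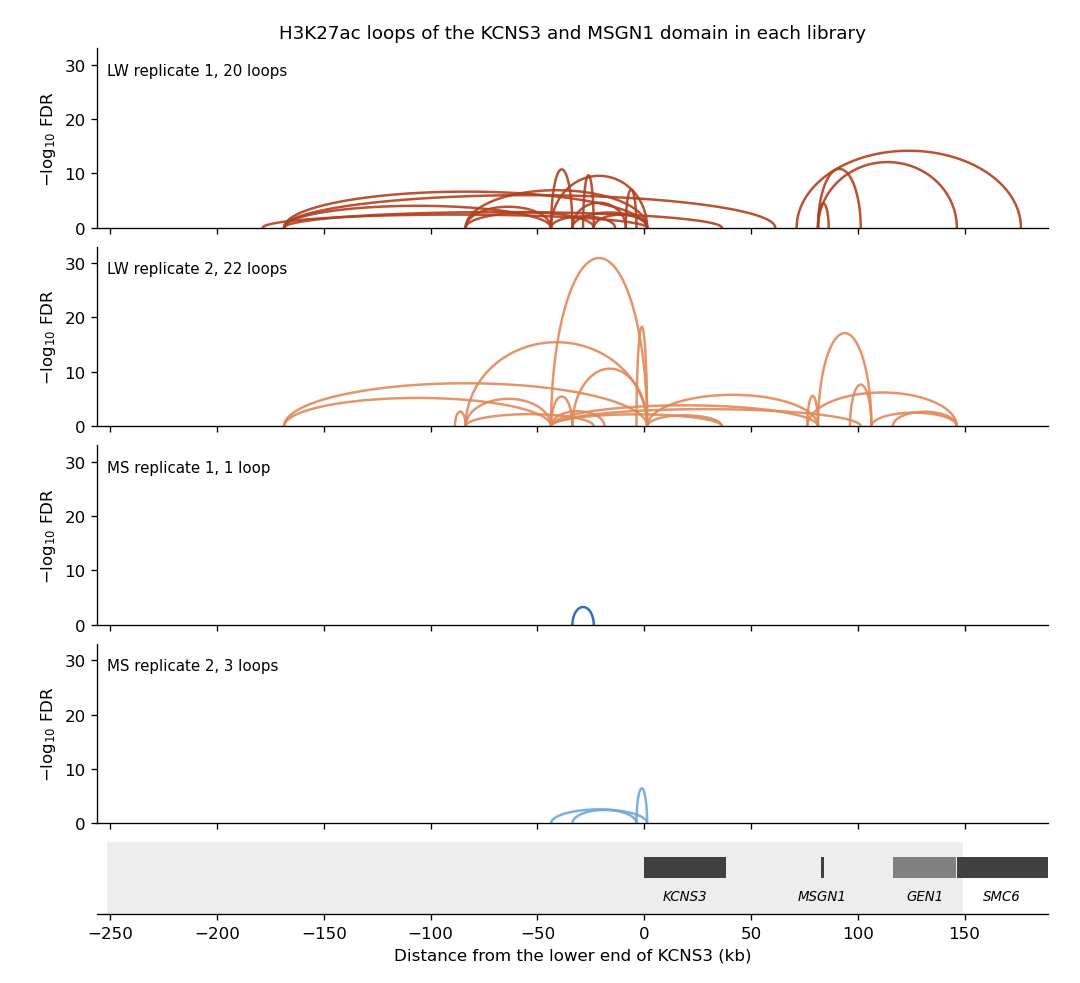
Each arc is 1 listed loop of the domain, drawn from anchor to anchor against the distance from the lower end of KCNS3 (kb), with its height giving −log10 FDR on the same axis in all 4 libraries, and the grey bar below marks the domain with its genes. The 20 and 22 loops of LW replicates 1 and 2 reach from the left side of KCNS3 to GEN1 and SMC6, and the 1 and 3 loops of MS replicates 1 and 2 lie on the left side of KCNS3.

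The number of loops called depends on depth, and the library lists held 57028 and 43282 loops in LW and 45061 and 33353 in MS. As a share of the library's own list, the domain loops made up 0.0351% and 0.0508% for LW against 0.00222% and 0.00899% for MS. Per 100 M valid pairs, with the pairs taken from the study's library totals, the domain had 16.1 and 34.5 loops in LW and 0.720 and 5.00 in MS. The libraries of the breeds did not overlap on either scale. MS replicate 1, with 1 domain loop, had a longer list than LW replicate 2, with 22.

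As a description of values that were used to choose the domain, a gap of at least 17 loops was found in 19 windows with LW higher, the domain among them, and in 1 window with MS higher. In LW the domain was a loop-rich window but not an extreme one. It had more loops than 69.9% and 82.1% of windows in the LW libraries, where the median window had 9 and 7 loops. In MS it had more loops than 15.3% and 36.9% of windows, against medians of 7 and 5.

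The neighbouring windows mostly pointed the same way by summed strength, with smaller differences, but mostly overlapped by the number of loops. By summed −log10 FDR, 5 of the 6 nearest windows (3 on each side) were also higher in both LW libraries, beside the 39.7% of all windows. By the number of loops, 2 of the 6 were, 1 of them with 3 and 3 loops in LW against 2 and 2 in MS. The share of all windows was not worked out for this count, so it is a description alone and cannot be read as a trait of the neighbourhood. The adjoining 400 kb on the side of lower coordinates, which holds RDH14, a retinol dehydrogenase gene, had 11 and 7 loops in LW and 7 and 7 in MS. The next window out had 12 and 10 loops in LW and 4 and 4 in MS. On the other side, the adjoining window, with the calcium sensor gene VSNL1, had 1 and 0 loops in LW and none in MS, and that 1 loop was a domain loop with its far anchor in SMC6. The nearest loop wholly outside the domain ended 130 to 135 kb away on the lower side in the 4 libraries and started 770 to 775 kb away on the upper side. No loop of any library spanned the whole domain. Widening the domain by 100 kb on each side added no loop in any library.

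**Figure D2:**
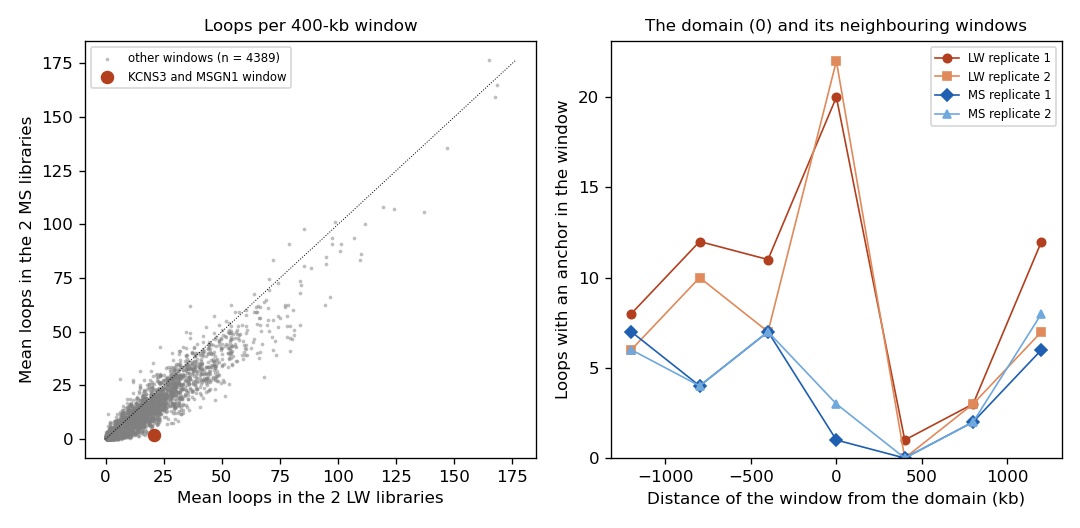
The left panel sets the mean number of loops in the 2 MS libraries against that in the 2 LW libraries for each 400-kb window, with a dotted line where both are equal, and the right panel gives the loops of each library in the domain (0 kb) and in 3 windows on each side. The domain lies at 21 loops in LW and 2 in MS, and the windows beside it have 0 to 12 loops per library.

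Within the domain the loops were built around few anchors. The 36 loops used 25 different anchor bins, and 17 of these overlapped no annotated gene. The 4 libraries used 19, 17, 2 and 4 anchors. In LW the most connected bins were the lower end of KCNS3 (chr3:119950001-119955000) and a gene-free bin 45 kb below it (chr3:119905001-119910000). The bin at the lower end of KCNS3 had 6 and 7 partners in LW, 2 in MS replicate 2 and none in MS replicate 1. The gene-free bin had 5 and 8 partners in LW, 1 in MS replicate 2 and none in MS replicate 1. More gene-free bins at chr3:119780001-119785000 and chr3:119865001-119870000 had 4 and 2 and 3 and 4 partners in LW and none in MS.

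Just 8 loops were listed in both LW libraries, 12 in LW replicate 1 alone and 14 in LW replicate 2 alone. These 8 loops spanned 10 to 170 kb and all lay on the lower side of KCNS3. The lower end of KCNS3 was an anchor of 4 of them, and the gene-free bin 45 kb below it was also an anchor of 4. The loop that joined both bins had a −log10 FDR of 9.54 and 30.9 in LW, was not listed in MS replicate 1 and had 2.56 in MS replicate 2. In LW replicate 2 it was the strongest loop of the domain and stronger than 97.2% of all loops of that library.

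From the lower end of KCNS3, the loop to the bin at chr3:119865001-119870000 (85 kb) had a −log10 FDR of 6.90 and 15.5 in LW. The loop to chr3:119780001-119785000 (170 kb) had 6.64 and 7.90, and that to chr3:119915001-119920000 (35 kb) had 2.81 and 10.6. None of these 3 loops was listed in an MS library. The remaining 4 loops of both LW libraries joined gene-free bins to each other, and the gene-free bin 45 kb below KCNS3 was an anchor of 3 of them. They were the 125-kb loop from chr3:119780001-119785000 (4.03 and 5.21), the 40-kb loop from chr3:119865001-119870000 (3.86 and 5.05) and the 10-kb loop to chr3:119915001-119920000 (10.7 and 5.47). The last was a 60-kb loop between chr3:119865001-119870000 and chr3:119925001-119930000 (2.81 and 2.23). Over the 8 loops, 6 were stronger in LW replicate 2, the library with fewer loops in all.

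The LW replicates agreed on the domain about as they agreed genome-wide. Of the 20 loops of LW replicate 1, 40.0% were listed in LW replicate 2 with the same anchors and 65.0% with each anchor at most 1 bin away. Over all its loops these shares were 26.6% and 48.6%. Of the 22 loops of LW replicate 2, 36.4% were listed in LW replicate 1 and 59.1% within 1 bin, beside 35.1% and 64.2% over all loops. Single loops of the domain thus often differed between the LW replicates, which both had their loops over the same region.

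The MS loops were few, short and placed on the lower side of KCNS3. MS replicate 1 listed 1 loop of 10 kb between gene-free bins (chr3:119915001-119920000 and chr3:119925001-119930000), with a −log10 FDR of 3.27. MS replicate 2 listed 3 loops, of which the 5-kb loop between the lower end of KCNS3 and the bin before it was the strongest with 6.42, beside 18.3 in LW replicate 2. Its other loops had 2.56 (45 kb) and 2.46 (30 kb). No loop was listed in both MS libraries. All 3 loops of MS replicate 2 lay within 1 bin of a loop in each LW library, and the loop of MS replicate 1 did so in LW replicate 1.

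In the reverse direction, 20.0% of the LW replicate 1 loops and 13.6% of the LW replicate 2 loops of the domain lay within 1 bin of a loop in MS replicate 2, where all loops gave 38.0% and 52.2%. Against MS replicate 1 the domain shares were 5.00% and 0.00%, and all loops gave 48.8% and 52.3%. Over all 36 loops, 34 were listed in LW, 4 in MS and 2 in both breeds. The reach and strength of the domain loops rest on 1 and 3 loops in MS, so no breed difference in them can be read from the values that follow. The longest was 230 and 170 kb in LW and 10 and 45 kb in MS, and the median was 42.5 and 40.0 kb in LW and 10.0 and 30.0 kb in MS. Over all loops the medians were 50.0 and 45.0 kb in LW and 55.0 and 40.0 kb in MS. The median −log10 FDR of the domain loops was 5.30 and 5.34 for LW against 3.27 and 2.56 for MS, where the medians over all loops were 3.87 and 4.24 for LW against 3.65 and 4.33 for MS.

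Linked through shared anchors, the LW loops formed large groups. In LW replicate 2 all 22 loops and 17 anchors were 1 group of 320 kb, which tied KCNS3, MSGN1 and GEN1 together. In LW replicate 1 the loops fell into a group of 16 loops and 13 anchors over 245 kb around KCNS3, a group of 3 loops over 70 kb from MSGN1 to GEN1 and SMC6, and 1 separate loop. The direct loop from the lower end of KCNS3 to MSGN1 (80 kb) was listed in LW replicate 2 alone, with a −log10 FDR of 5.78. A loop from the gene-free bin 45 kb below KCNS3 to MSGN1 (125 kb, 3.85) was also listed there alone. The link between both genes thus rests on 1 library. MS replicate 1 had 2 linked anchors over 15 kb, and MS replicate 2 had 4 over 50 kb.

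KCNS3 itself had 7 and 8 loops in LW, 0 in MS replicate 1 and 2 in MS replicate 2, where a loop counts for a gene if an anchor reaches within 1 kb of its lower or upper end. Its interaction score, the sum of −log10 FDR over these loops, was 33.6 and 93.2 for LW against 0 and 8.98 for MS. Both LW libraries were above both MS libraries, as for 21.1% of the 15431 genes with a loop (7.02% had MS higher). The LW replicates were also far apart, with the score of replicate 2 well above that of replicate 1. After quantile normalization the fitted difference was 3.82 on the log2(score + 1) scale (SE 1.30), and this ranked 11 of 15431 genes in the direction of LW. The median of all genes was 0.02. With 1 MS library at 0 this value depends on the pseudocount, and it is no test, since the gene was chosen for it.

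Nearly all of the score came from the lower end of the gene. The lower end had scores of 30.7 and 91.0 for LW against 0 and 8.98 for MS. The upper end, in the bin chr3:119985001-119990000, had 1 and 2 loops in LW with scores of 2.89 and 4.21 and none in MS. The strand was not given in the gene table, so neither end is named here as the start. A loop between both ends was listed in LW replicate 2 alone, with a −log10 FDR of 2.02.

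MSGN1 had 3 and 4 loops in LW and none in either MS library. Its interaction score was 27.3 and 32.3 for LW against 0 and 0 for MS. The fitted difference was 4.49 (SE 0.77) and ranked 2 of 15431 genes in the direction of LW, a value that also depends on the pseudocount because MS is at 0. No single loop of MSGN1 was listed in both LW libraries with the same anchors, though some lay within 1 bin of each other. LW replicate 1 joined its bin (chr3:120030001-120035000) to chr3:120050001-120055000 (20 kb, 10.8), to the next bin (4.44) and to the bin shared by GEN1 and SMC6 that starts at 120095001 (65 kb, 12.1). LW replicate 2 joined it to chr3:120055001-120060000 (25 kb, 17.1), to the bin before it (5.58), to KCNS3 and to the gene-free bin below KCNS3. The 20-kb loop of replicate 1 and the 25-kb loop of replicate 2 ended in adjoining bins. The 65-kb loop of replicate 1 lay within 1 bin of a 70-kb loop of replicate 2 (6.20) from the bin before that of MSGN1. The strongest partner of MSGN1 still differed between the LW replicates, the bin of GEN1 and SMC6 in replicate 1 and a gene-free bin in replicate 2.

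GEN1, which encodes a resolvase of Holliday junctions, and SMC6, which encodes a part of the SMC5/6 complex, lie side by side at the upper edge of the domain and shared 1 anchor bin. Each had 1 and 3 loops in LW with scores of 12.1 and 11.4, and none in MS, so that a single signal counts for both. The loops of LW replicate 2 at this bin reached chr3:120025001-120030000 (6.20), chr3:120055001-120060000 (2.51) and the lower end of GEN1 (2.67). In LW replicate 1 the strongest loop of the domain, with a −log10 FDR of 14.2, joined the uncharacterized gene LOC102160892, between KCNS3 and MSGN1, to the body of SMC6 over 105 kb. LOC102160892 had scores of 20.1 and 0 for LW against 0 and 0 for MS. LOC102160758, also between KCNS3 and MSGN1, had no loop at its ends in any library.

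Genes beyond the domain differed less than KCNS3 and MSGN1, but these were chosen for their difference, so the contrast is no evidence about the neighbourhood. A list of 17 neighbouring genes also took in GEN1 and SMC6, which lie at the upper edge of the domain. Of these 17 genes, 14 were in the gene table and 12 of these had a loop. Both LW libraries were above both MS libraries for 4 of the 12, namely GEN1, SMC6, OSR1 and MYCN, beside 21.1% of all genes with a loop. None of the 12 was higher in both MS libraries, beside 7.02% of all genes. The threshold for genes was a log2 difference past 1.5 with an unadjusted p under 0.05 (limma). It was passed by 2.83% of all genes with LW higher and by 2.5% with MS higher. GEN1 and SMC6 share 1 anchor bin inside the domain, so their scores come from domain loops and carry no call here. OSR1 and MYCN, outside the domain, were not past the threshold. OSR1, which encodes a zinc finger transcription factor, had 8.33 and 9.23 for LW against 2.74 and 0 for MS. MYCN, a proto-oncogene of the MYC family, had 6.07 and 8.62 for LW against 3.20 and 0 for MS. RDH14 had 8.67 and 6.33 for LW against 0 and 9.80 for MS, which overlap. FAM49A, a regulator of the actin cytoskeleton, had 16.2 and 30.3 for LW against 12.6 and 29.3 for MS, also overlapping. VSNL1 and RAD51AP2, the closest genes above SMC6, had no loop at their ends in any library.

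**Figure D3:**
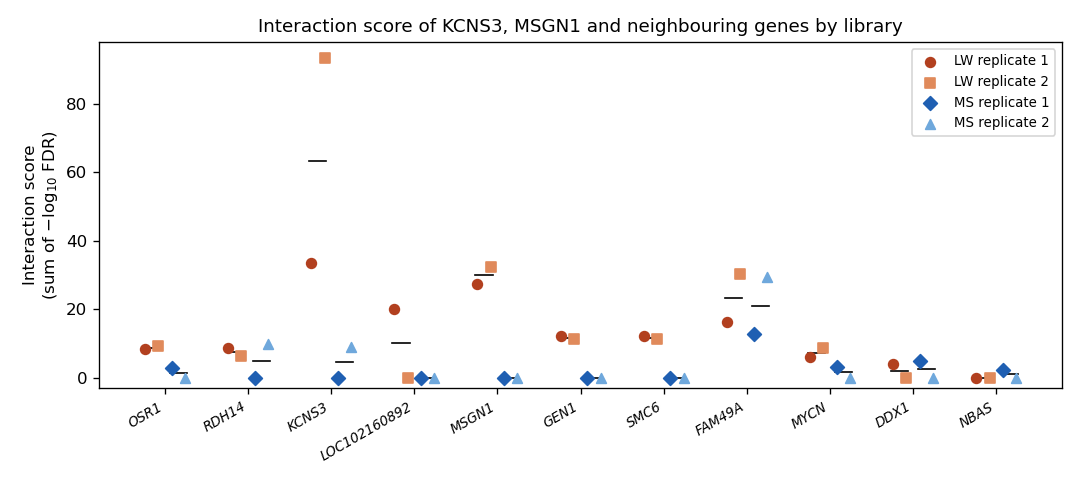
Points give the interaction score (sum of −log10 FDR over loops within 1 kb of a gene end) of KCNS3, MSGN1 and neighbouring genes in each library, in the order of the genes on chromosome 3, with a line at the mean of each breed (n = 2). MSGN1, GEN1 and SMC6 have scores in LW and 0 in both MS libraries, KCNS3 has the highest score of 93.2 in LW replicate 2, and RDH14 and FAM49A overlap between the breeds.

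Other silent potassium channel subunits had few loops. Of 9 such genes, 7 had no loop at their ends in any library. KCNG2 had a score of 5.61 in LW replicate 1 alone, and KCNG4 had 2.40 in MS replicate 2 alone. The 7 genes without a loop had no fit and could not pass the threshold. Neither of the 2 with a loop was past it, beside 2.83% (LW higher) and 2.5% (MS higher) of all genes with a loop. So few genes cannot be read against these shares.

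The potassium channel genes known from muscle were widely looped, and their differences went in both directions. Of 14 listed, 13 were in the gene table, 11 had a loop and 7 had loops in all 4 libraries. None was past the threshold in either direction, beside 2.83% (LW higher) and 2.5% (MS higher) of all genes with a loop. In each direction 1 was without overlap, beside 21.1% (LW higher) and 7.02% (MS higher) of all genes. The median log2 difference of those with a loop was 0.24. The differences ranged from −2.04 for KCNC1, a voltage-gated channel, to 1.34 for KCNJ2, an inward rectifier, each with 1 library at a score of 0. KCNC4, another voltage-gated channel, had scores of 7.21 and 42.6 for LW against 42.0 and 77.1 for MS, which overlap. KCNA7, a muscle potassium channel, had scores of 51.1 and 58.2 for LW against 41.4 and 47.5 for MS. KCNJ11, the pore subunit of the ATP-sensitive potassium channel, had 31.9 and 76.4 for LW against 28.6 and 37.8 for MS, which overlap. KCNMA1, the large-conductance calcium-activated channel, had 57.4 and 56.9 for LW against 68.5 and 59.3 for MS, the opposite direction from KCNS3, with a log2 difference of −0.41.

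Among the genes of the presomitic mesoderm other than MSGN1, 13 of 14 were in the gene table and 8 had a loop. None was higher in both LW libraries, beside 21.1% of all genes with a loop. In both MS libraries 2 were higher and 1 of these was past the threshold in the direction of MS, beside 7.02% and 2.5% of all genes. TCF15, a basic helix-loop-helix factor of the somites, had scores of 13.2 and 19.8 for LW against 79.5 and 69.7 for MS. TBX6, a T-box factor of the presomitic mesoderm, had 12.6 and 6.87 for LW against 20.3 and 26.3 for MS. The pattern of MSGN1, with no loop in MS, was not seen in another gene of this list with loops in both LW libraries. The median log2 difference of the 8 genes was −0.02.

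The genes closest to KCNS3 over the 4 normalized scores were MORC4 (distance 1.16), GPI (1.21), the uncharacterized LOC100511157 (1.34), PHF11 (1.44) and the uncharacterized LOC110262081 (1.46), by the Euclidean distance on the log2 scale. All 5 had a score of 0 in MS replicate 1 and a score above 0 in the other libraries. GPI, which encodes the glycolytic enzyme glucose-6-phosphate isomerase, had 28.4 and 39.6 for LW against 0 and 6.18 for MS. MORC4 had 27.3 and 40.6 for LW against 0 and 11.8 for MS.

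The tissue matched its label, and markers of other cell types went in both directions. All 12 muscle marker genes had loops in all 4 libraries, and no share of all genes is at hand for this. The list of 2 satellite cell genes, for the stem cells of muscle, had a summed interaction score of 22.9 and 14.6 for LW against 0 and 0 for MS. Of these, PAX7 had 18.5 and 14.6 in LW and 0 in both MS libraries, and MYF5 had 4.38 in LW replicate 1 alone. The 3 fibroblast genes summed to 68.0 and 85.0 for LW against 40.9 and 49.6 for MS. The fitted log2 difference of COL1A1 was just 0.13, and PDGFRA had a loop in LW replicate 2 alone. The 3 immune genes summed to 30.2 and 26.4 for LW against 44.9 and 45.4 for MS, with CD3E and PTPRC at 0. The 3 endothelial genes overlapped, with 33.2 and 67.7 for LW against 67.1 and 138.9 for MS. Of 4 adipocyte genes, FABP4 alone had a loop (2.20 in MS replicate 1), and the 3 Schwann cell genes had none. Gene by gene, 1 of 2 satellite cell, 2 of 3 fibroblast and 3 of 12 muscle genes were higher in both LW libraries. The share of all genes with a loop was 21.1%. In both MS libraries 1 of 3 immune, 1 of 3 endothelial and 1 of 12 muscle genes were higher, beside 7.02% of all genes. The part of these cell types in the difference at the domain was not tested, and in bulk tissue fewer cells of a type and fewer loops per cell cannot be told apart.

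GRID-seq joins RNA that sits on chromatin to the DNA beside it, so that each read pair names an RNA and the place it was found. The lists gave, for each RNA enriched on chromatin, the 1-kb DNA bins with a background-corrected signal of at least 0.02, and each signal is scaled to the reads of its RNA. RNAs made from KCNS3, MSGN1, GEN1, SMC6 or any other gene of the neighbourhood were not listed in any library. The smallest number of reads of a listed RNA was 441 and 446 for LW against 432 and 455 for MS, so an RNA below this depth was not detectable. Nor was an RNA of any silent potassium channel subunit or presomitic mesoderm gene listed. Of the 12 muscle markers, 7 were listed in every library, among them TTN (titin), NEB (nebulin), DES (desmin) and CKM (muscle creatine kinase).

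The RNAs found on the DNA of the domain came from elsewhere in the genome. There were 5, with 4 and 1 for LW against 5 and 3 for MS, and they were listed on 132 and 50 of the 400 bins in LW and on 148 and 145 in MS. The 4 described here were 3 long noncoding RNAs known by their Ensembl numbers and the RNA of TTN, the giant spring protein of the sarcomere, while the totals are over all 5. The summed signal was 112.2 and 21.8 for LW against 156.4 and 100.8 for MS. The breeds overlapped, since LW replicate 1 lay between the MS libraries and LW replicate 2 below them.

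Over 400-kb windows, the fitted difference of the domain was −1.93 on the log2(signal + 1) scale (SE 1.40), lower in LW, with an adjusted p of 0.495 from limma with Benjamini-Hochberg adjustment over 5953 windows (unadjusted p = 0.242). The domain was thus not past the threshold for RNA signal. At an adjusted p under 0.05, 0.0% of windows were called in either direction, and 966 windows (16.2%) had an unadjusted p under 0.05. The 2 libraries per breed do not allow an exact permutation p below 0.333. The sign of the RNA difference was opposite to that of the loops, but its size rests on LW replicate 2, without which the difference was −0.35. The domain had more RNA signal than 60.4% and 15.1% of windows in LW and than 73.2% and 55.2% in MS, against medians of 84.0 and 107.2 for LW against 60.0 and 81.2 for MS.

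**Figure D4:**
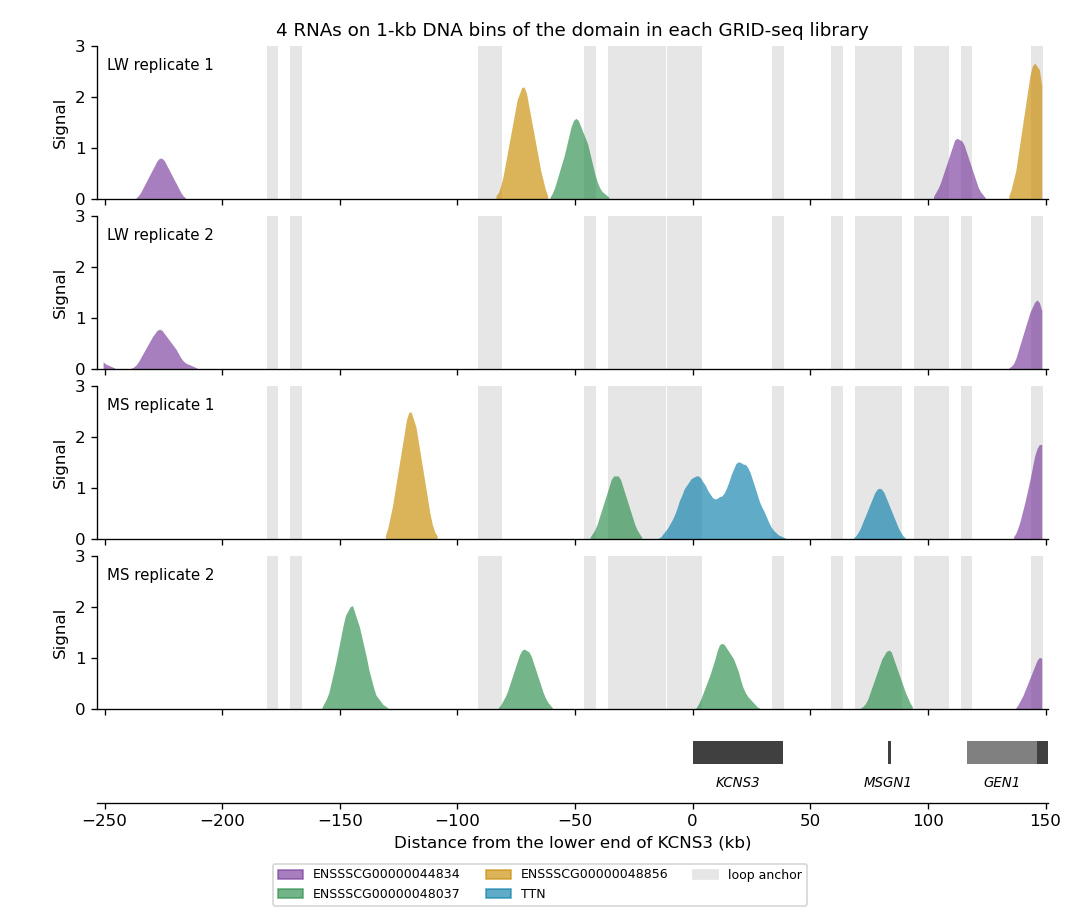
The background-corrected GRID-seq signal of the 4 RNAs described is drawn per 1-kb bin against the distance from the lower end of KCNS3 (kb), 1 panel per library. Grey bands mark the 5-kb loop anchors pooled over all libraries, the same in each panel, and bars mark the genes. The signal lies in separate runs, and LW replicate 2 has runs of 1 RNA towards the edges of the domain alone.

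Each RNA lay in 1 to 4 runs of adjoining bins rather than along the whole domain. There were 6 and 3 runs in LW and 7 and 6 in MS, and of the 17 runs that did not touch an edge of the domain, 16 were 22 to 29 bins long. Neighbouring bins are therefore not independent. The same loop anchors, pooled over the 36 loops of all libraries, were set against the RNA signal of each library. Of these loops, 34 were listed in LW and 4 in MS, so most of the anchors were not anchors in MS. Bins with RNA signal lay on the pooled anchors in 31.1% and 10.0% of cases in LW and 50.0% and 39.3% in MS. The pooled anchors covered 30.0% of the domain.

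ENSSSCG00000044834, a long noncoding RNA made on chromosome 7 (10797875 to 10925845), was the only one of the 5 RNAs listed in the domain in all 4 libraries. There it was listed on 45 and 50 bins in LW and on 13 and 12 in MS, with a summed signal of 22.7 and 21.8 for LW against 12.7 and 6.60 for MS. The LW libraries were above the MS libraries, in the domain as over the genome, where it was listed on 237150 and 203099 bins in LW and on 47717 and 46333 in MS. Its reads went the other way, with 906421 and 1003089 for LW against 1393716 and 1673556 for MS. A run at the upper edge, over the end shared by GEN1 and SMC6, was listed in both MS libraries and in LW replicate 2, and a run near the lower edge was listed in both LW libraries, which shared 22 bins.

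ENSSSCG00000048037, a long noncoding RNA made 66.0 Mb away on the same chromosome (53631433 to 53653180), was listed on 26 and 0 bins in LW and on 23 and 104 in MS. Most of its signal in the domain came from MS replicate 2, at 70.6, beside 19.2 and 0 in LW and 14.5 in MS replicate 1, so the MS libraries lay on either side of LW replicate 1. ENSSSCG00000048856, made on chromosome 2 (6752140 to 6757157), was listed on 38 and 0 bins in LW and on 23 and 0 in MS, and no bin was shared. TTN RNA was listed in MS replicate 1 alone, on 78 bins with a signal of 54.9, although its reads were 914086 and 1016278 for LW against 697633 and 830738 for MS.

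On the body of KCNS3 the RNAs described differed from library to library. None was listed there in LW, TTN was listed in MS replicate 1 (signal 35.2) and ENSSSCG00000048037 in MS replicate 2 (17.1). Within 5 kb of MSGN1 no RNA was listed in LW. In MS replicate 1 a TTN run of 23 bins with a signal of 11.3 lay across MSGN1, and in MS replicate 2 the signal of ENSSSCG00000048037 within 5 kb of the gene was 10.8. RNA signal was thus listed at MSGN1 in both MS libraries and in neither LW library, but from different RNAs. No share of genes with such a pattern is at hand. MSGN1 was chosen for its loops, and a relation between its loops and this RNA signal was not tested. Windows with both MS libraries above both LW libraries for RNA signal made up 18.4% of all (38.1% with LW higher), and this count is for 400-kb windows, not for single genes.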

How the data were processed

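Processed lists of 8 libraries (4 BL-HiChIP, 4 GRID-seq) were analysed, with breed and replicate taken from the titles in the labels. The members and gene lists were chosen with earlier results of these data known. For BL-HiChIP the authors trimmed the linker with ChIA-PET2, aligned with BWA-MEM to Sscrofa11.1, removed duplicates with Pairtools and called loops per library with FitHiChIP, from H3K27ac ChIP-seq peaks to all 5-kb bins. The peaks and contact counts were not used here. The lists the authors deposited hold 1 p-value column per loop, read as the FDR because it ends below 0.01. Loop strength was its −log10, and a value of 0 was set to the smallest value above 0. For GRID-seq the authors aligned RNA and DNA ends with Bowtie2 (2.2.5 in the submitters' processing notes) and corrected for background. The deposited lists were read as a read count per RNA and a background-corrected signal per RNA and 1-kb bin, from the values, since they have no column names.

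Scores of genes (RefSeq table of Sscrofa11.1, loops within 1 kb of a gene end) and of 400-kb windows, laid so that the domain is 1 window, were quantile-normalized within each assay (4 libraries) and fitted with limma 3.58.1 in R 4.3.3 on log2(value + 1), which understates the change of low values. The fit was also run on simulated data with normal noise of a common spread and without quantile normalization, so that run does not cover the normalization used here. Adjusted p-values are Benjamini-Hochberg values over all genes or windows. Named genes were KCNS3, MSGN1, genes at the domain or at far anchors, and listed neighbours, potassium channels, presomitic mesoderm genes and cell markers, with the 5 genes whose normalized scores lay closest to KCNS3. Depth was 60039674 (MS replicate 2) to 138885883 (MS replicate 1) valid pairs per BL-HiChIP library, from the study's totals, with 33353 to 57028 loops listed. Each GRID-seq library had 7172517 to 9943666 reads on listed RNAs. Python 3.11.15 with pandas 2.3.3 was used. The alternatives are given in the closing section. Results for 1 of the listed genes and 1 of the RNAs are not reported here.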

Additional observations from a re-analysis of the deposited data

How the results depend on the processing

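All 52 alternatives kept the direction of their result. For the loop values, which were used to choose the domain, a kept direction adds no evidence. The domain difference of 19 loops became 13.5 at an FDR of at most 0.001, 22.4 per 100 M valid pairs and 13.0 when each library kept its 33353 strongest loops. Without loops between neighbouring bins, an alternative chosen after seeing the data, it was 16.5. Leaving out 1 library at a time gave 18.0 to 20.0. The MSGN1 difference of 4.49 was 4.94 without normalization, 6.75 with a pseudocount of 0.1 and 4.02 to 4.90 without 1 library. The KCNS3 difference of 3.82 ranged from 2.05 without MS replicate 1, its library at 0, to 5.65 without MS replicate 2. The window score of 3.59 was 2.42 when loops were counted rather than summed by strength, and 2.75 to 4.31 without 1 library. The RNA difference of −1.93 ranged from −3.64 without LW replicate 1 to −0.35 without LW replicate 2, and its adjusted p (limma) from 0.318 to 0.865 over 12 alternatives. With a replicate block the differences were 3.82, 4.49, 3.59 and −1.93, and no call changed. The block cannot move these differences, because each breed has 1 library of each replicate number. The deviations of equally numbered replicates correlated at r = 0.35 (genes, loops), 0.46 (windows, loops) and −0.02 (windows, RNA), but the labels give no source of pairing. Windows around annotated starts alone were not run, because the gene table gives no strand. Loop depth limits what the 1 and 3 MS loops can show: a loop not listed is one below the FDR limit or without an H3K27ac peak in that breed, not one shown to be absent.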
